A study of Zea mays with 6 samples.

Results

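The catalase genes of maize are cat1 (Zm00001d014848), cat2 (Zm00001d027511) and cat3 (Zm00001d054044). They were chosen by these identifiers, and all 3 were found among the 44351 genes listed for each library. Apart from miRNA genes, which the files list by name, the files carry identifiers without symbols, and 0 of the 44146 identifiers of this kind were paired with a symbol in the RefSeq gene table used here (assembly Zm-B73-REFERENCE-NAM-5.0), which lists cat1, cat2 and cat3 under other identifiers. The symbols therefore came with the choice of members and were not checked against sequence.

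Leaf RNA of KN5585, a maize inbred line, was sequenced in 2 groups of 3 libraries. The transgenic group is a single strain that overexpresses ZmSUS1, a sucrose synthase, according to the title of the series, and the control group is its non-transgenic counterpart. The sources used here do not name the promoter of the transgene. The labels of both groups name a time of 3 days after drought, whereas the series text gives 5 days. The treatment label is transgenic for the first group and normal for the second, so it is the time label and the series text that place the control plants under drought. Without drought in the control plants, its effect and that of the transgene cannot be told apart. The level of ZmSUS1, the markers of leaf tissue and the other genes of peroxide metabolism and photorespiration were not analysed here, because their identifiers were not paired with names.

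Catalase breaks hydrogen peroxide down to water and oxygen. One source of this peroxide in leaves is photorespiration, in which glycolate oxidase releases it inside peroxisomes, and drought is a common setting for its build-up. Maize has a small family of catalase genes whose products differ in place and regulation. The cat2 isozyme is known from peroxisomes of bundle sheath cells, cat3 is known from mesophyll, for its association with mitochondria and for a transcript that follows the circadian clock, and cat1 is known for induction by abscisic acid and osmotic stress.

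The make-up of the catalase transcripts differed between the groups. In transgenic leaves cat2 was higher than in control leaves, and cat1 and cat3 were lower, as deposited in FPKM (fragment numbers corrected for gene length and for the size of the library). The level of cat2 averaged 244.3 ± 3.1 FPKM in transgenic libraries and 156.5 ± 0.8 FPKM in control libraries (SD, n = 3 each), a 1.56-fold difference. The level of cat1 averaged 44.0 ± 1.6 FPKM in transgenic libraries and 112.7 ± 0.7 FPKM in control libraries, 2.56-fold lower. The level of cat3 averaged 80.6 ± 1.1 FPKM in transgenic libraries and 128.4 ± 0.9 FPKM in control libraries, 1.59-fold lower; this difference was absent after one of the scalings described further on.

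In the single libraries, cat2 stood at 246.5, 240.8 and 245.7 FPKM in transgenic leaves, against 156.0, 157.4 and 156.0 FPKM in control leaves. All 3 transgenic libraries lay above all 3 control libraries, with a gap of 83.4 FPKM between the nearest of them. The fitted log2 difference was 0.64 ± 0.02 (SE, 95% interval 0.59 to 0.69, limma on log2(FPKM + 1), Benjamini-Hochberg adjusted p = 1.4e-08 over all 22944 genes tested). For cat1 the values were 42.8, 45.8 and 43.4 FPKM in transgenic leaves, against 112.0, 113.4 and 112.7 FPKM in control leaves. The groups did not overlap, and every transgenic value was below every control value. The log2 difference of cat1 was -1.34 ± 0.03 (SE, 95% interval -1.41 to -1.27, limma adjusted p = 3.0e-09). For cat3 the values were 79.5, 81.6 and 80.5 FPKM in transgenic leaves, against 129.4, 127.6 and 128.2 FPKM in control leaves. Again the transgenic values were all below the control values, and the log2 difference was -0.67 ± 0.02 (SE, 95% interval -0.72 to -0.61, limma adjusted p = 2.8e-08).

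**Figure D1:**
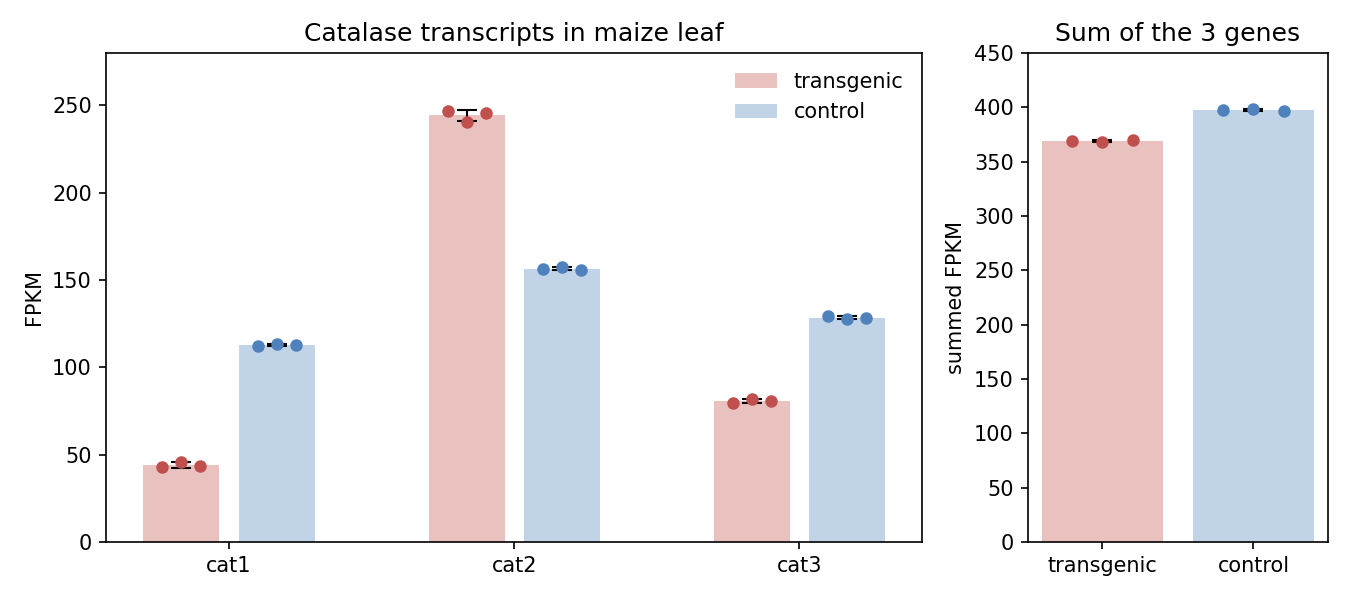
FPKM of cat1, cat2 and cat3 (left) and of their sum (right) in transgenic and control leaves; points are the 3 libraries of each group, bars their mean and error bars the SD. The transgenic points lie above the control points for cat2 (means 244.3 and 156.5 FPKM) and below them for cat1, cat3 and the sum (means 368.8 and 397.6 FPKM for the sum).

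A call by itself sets no catalase gene apart, since 84% of the genes tested passed the same threshold of an adjusted p of 0.05. Higher calls were less common, at 16.3% of tested genes, than lower calls, at 67.7%, so cat2 ran in the direction of the smaller class and cat1 and cat3 in that of the larger. In 84.5% of the genes tested all transgenic values lay on one side of all control values, which is the background for the same property of the 3 catalase genes. Among the 1967 genes that averaged 50 to 500 FPKM, the range that holds all 3, 36.7% were called higher and 57% lower in transgenic leaves. The series speaks of biological replicates, but the labels name no separate plants, so p-values measure the spread between these libraries only. For cat1, cat2 and cat3 the coefficients of variation were 3.59%, 1.27% and 1.32% in transgenic libraries, and 0.61%, 0.49% and 0.72% in control libraries. Genes of 50 to 500 FPKM had a median coefficient of variation of 2.44% in transgenic and 2.43% in control libraries. The spread of cat1 in transgenic libraries was above this median, and the other catalase values were below it.

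The order of the levels was the same in all 6 libraries, with cat2 highest, cat3 next and cat1 lowest. FPKM is scaled to gene length, so the levels of the 3 genes can be set beside each other. In every library the gaps between neighbours in this order exceeded the spread of either gene over its group, and they were wider in transgenic leaves. The level of cat2 was 3.03 ± 0.08 times that of cat3 in transgenic libraries and 1.22 ± 0.01 times in control libraries (SD, n = 3 each). The level of cat3 was 1.83 ± 0.04 times that of cat1 in transgenic libraries and 1.14 ± 0.02 times in control libraries. From the top to the bottom of the order, cat2 was 5.77, 5.26 and 5.66 times as high as cat1 in transgenic libraries, against 1.39, 1.39 and 1.38 times in control libraries. The 3 genes thus lay closer together in control leaves than in transgenic leaves.

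Ratios between genes of the same library do not depend on scaling libraries by a single factor each; quantile normalisation, which is no such scaling, does move them. All 3 pairs of genes were compared by the log2 ratio of their FPKM. The cat1 over cat2 log2 ratio was -2.47 ± 0.07 in transgenic and -0.47 ± 0.004 in control libraries (SD, n = 3 each), a difference of -2.002 ± 0.040 (SE). The cat3 over cat2 log2 ratio was -1.60 ± 0.04 in transgenic and -0.29 ± 0.02 in control libraries, a difference of -1.32 ± 0.02 (SE). The 2 genes that were lower as deposited also differed from each other, since the cat3 over cat1 log2 ratio was 0.87 ± 0.03 in transgenic and 0.19 ± 0.02 in control libraries, a difference of 0.69 ± 0.02 (SE). In each of the 3 pairs the groups did not overlap (exact permutation test, two-sided p = 0.1, and 0.1 after Benjamini-Hochberg adjustment over the 3 pairs). With 3 against 3 libraries 0.1 is the smallest p this test can give, so it cannot pass a threshold of 0.05. How often the ratio of other gene pairs separates the groups was not tested, so the lack of overlap sets no catalase pair apart.

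As a share of the summed catalase FPKM, cat2 held 66.8%, 65.4% and 66.5% in transgenic libraries, against 39.3%, 39.5% and 39.3% in control libraries. The gene held the major part of the sum in every transgenic library and in no control library. The share of cat1 was 11.6%, 12.4% and 11.7% in transgenic libraries, against 28.2%, 28.5% and 28.4% in control libraries. The share of cat3 was 21.6%, 22.2% and 21.8% in transgenic libraries, against 32.6%, 32.0% and 32.3% in control libraries. The mean difference was 26.9 percentage points for cat2, -16.4 for cat1 and -10.5 for cat3, each without overlap between groups (exact permutation test, two-sided p = 0.1, and 0.1 adjusted over the 3 shares). The shares are not independent of each other, because they add up to the whole. Shares within other sets of genes were not compared, so the differing make-up is not shown to be particular to catalases.

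**Figure D2:**
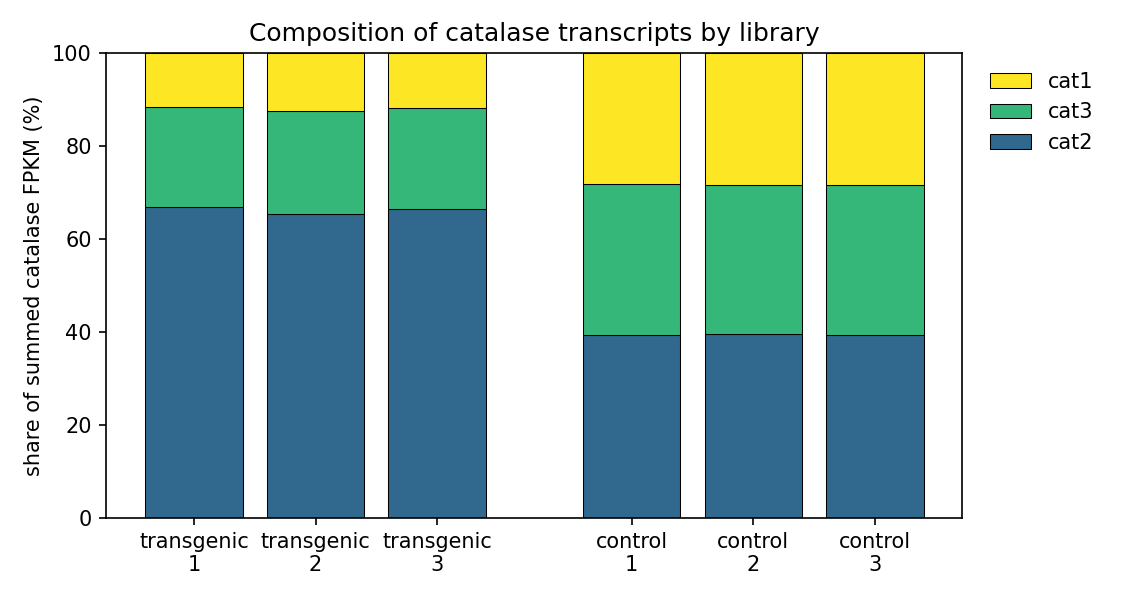
Share of cat1, cat3 and cat2 in the summed catalase FPKM (percent) in each transgenic and control library, 1 bar per library. The cat2 part reaches 65.4% to 66.8% in transgenic bars and 39.3% to 39.5% in control bars, and the parts of cat1 and cat3 are both narrower in transgenic bars.

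As deposited, the sum of the 3 genes differed less than each of its parts. It was 368.8, 368.1 and 369.6 FPKM in transgenic libraries, against 397.5, 398.4 and 396.8 FPKM in control libraries. The log2 difference of the sum was -0.11, without overlap between groups (two-sided p = 0.1 by an exact permutation test). The higher cat2 offset the lower levels of the other 2 in part as deposited, leaving a difference of -28.7 FPKM in the sum. Together cat1 and cat3 averaged 124.5 ± 2.6 FPKM in transgenic and 241.1 ± 0.3 FPKM in control libraries (SD, n = 3 each), a difference of -116.6 FPKM. The direction of the sum depends on the scaling. The libraries' FPKM add up to different totals, 829541 to 831082 in transgenic and 684047 to 689548 in control libraries. As a share of this total the sum of the catalases was 0.0444% ± 0.00005 in transgenic and 0.0580% ± 0.0004 in control libraries (SD, n = 3 each), lower in transgenic leaves. After median-of-ratios scaling, which sets the typical gene equal between libraries, the sum was 467.4 ± 2.8 scaled FPKM in transgenic and 313.7 ± 1.7 in control libraries, higher in transgenic leaves.

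Over all genes tested the median log2 difference was -0.56, and -0.02 after median-of-ratios scaling, so the direction of a single catalase is best read beside that shift. The log2 difference of cat2 stayed positive and past the threshold under each of 6 scalings, from 0.37 with the same total FPKM in each library (limma adjusted p = 2.9e-07) to 1.32 with median-of-ratios scaling (limma adjusted p = 2.4e-10). That of cat1 stayed negative and past the threshold under the same 6, from -1.61 with the same total FPKM (limma adjusted p = 9.3e-10) to -0.67 with median-of-ratios scaling (limma adjusted p = 1.6e-07). The cat3 difference did not hold in this way. With median-of-ratios scaling it was 0.01 ± 0.02 (SE, 95% interval -0.04 to 0.06, limma adjusted p = 0.69), at 102.1 ± 0.9 scaled FPKM in transgenic and 101.3 ± 0.8 in control libraries (SD, n = 3 each). In the other 5 it was lower in transgenic leaves, from -0.94 with the same total FPKM to -0.38 with the total of all but the 100 most abundant genes. When the scaling used only genes of 50 to 500 FPKM, the cat3 difference was -0.39 (limma adjusted p = 8.9e-07). With median-of-ratios scaling, 73.2% of the genes tested were called, 36.3% higher and 36.9% lower, and of the genes of 50 to 500 FPKM 64% were called higher and 29.1% lower.

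**Figure D3:**
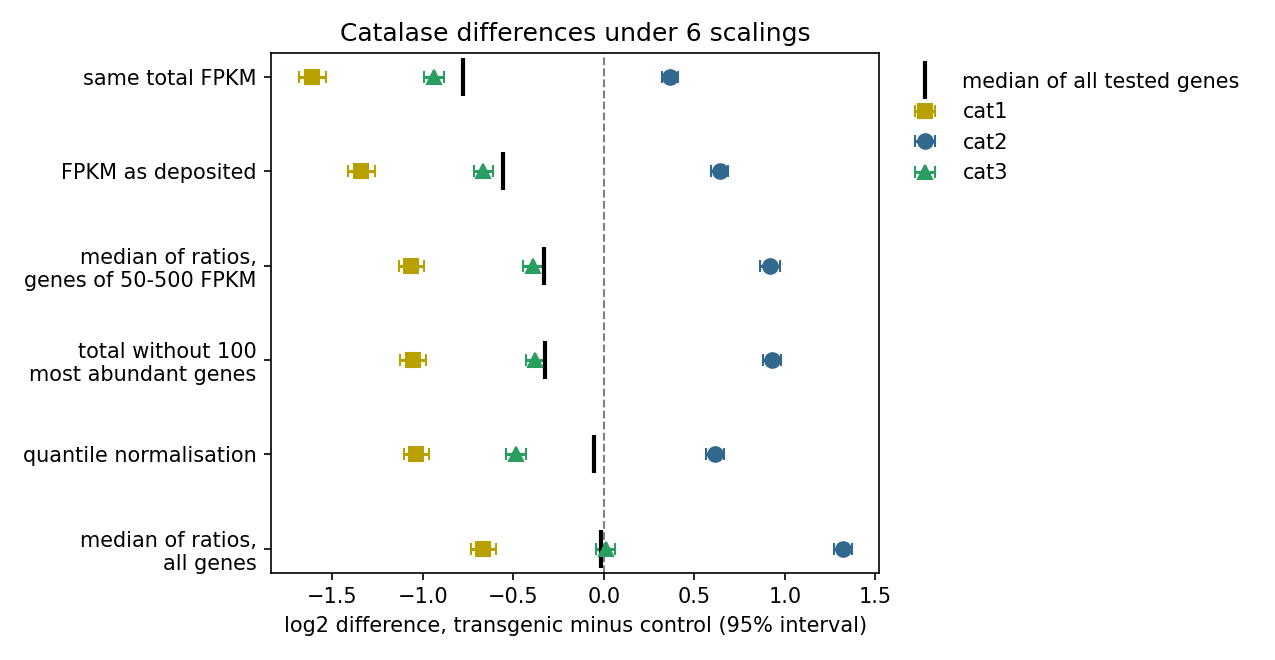
Log2 difference, transgenic minus control, of cat1, cat2 and cat3 under 6 scalings between libraries, with 95% intervals from limma; black ticks mark the median of all tested genes. The cat2 points lie above 0 and the cat1 points below 0 in all 6 scalings, while cat3 lies next to the black tick in several and at 0.01 with median-of-ratios scaling over all genes.

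Among the differences of all 22944 genes tested, that of cat2 was above 90.8% of them as deposited and above 92.4% after median-of-ratios scaling. That of cat1 was above only 11.6% as deposited and 15.9% after scaling. The difference of cat3 lay in the middle of all genes tested on these scales, above 43.1% as deposited and 51.6% after scaling. With quantile normalisation it was above only 24.5% of them. Relative to the median of all genes, cat3 was lower by a log2 difference of -0.11, and relative to the genes of 50 to 500 FPKM, whose median was -0.29, by -0.38. Against this class, as deposited, cat2 was above 80.99%, cat3 above 32.8% and cat1 above 12.1% of the genes. After median-of-ratios scaling the median of the class was 0.39, and cat3 was above 33.1% of its genes. No test belongs to these positions, which describe where the catalases lie in the table.

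**Figure D4:**
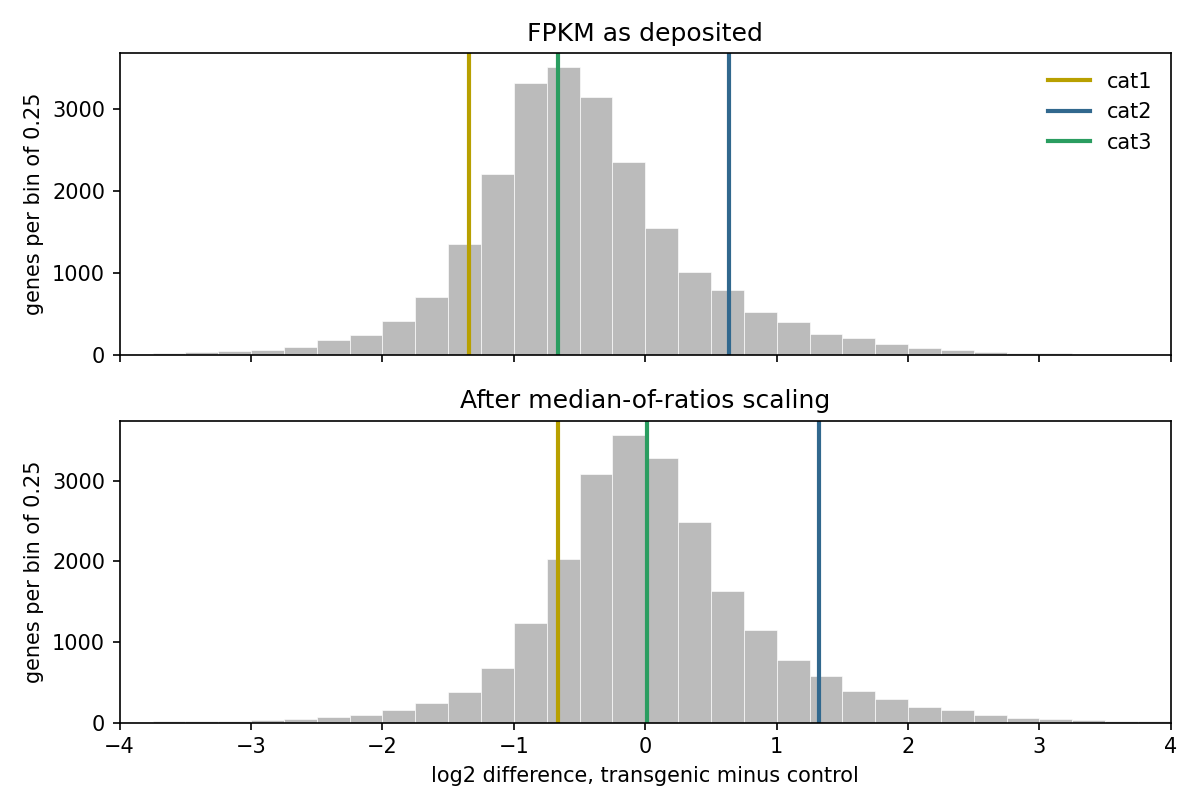
Number of tested genes per bin of 0.25 in log2 difference, transgenic minus control, with the 3 catalase genes as lines, for FPKM as deposited (top) and after median-of-ratios scaling (bottom); genes beyond 4 in either direction are not drawn. The line of cat3 lies near the peak in both panels (-0.67 and 0.01), that of cat1 on the lower side (-1.34 and -0.67) and that of cat2 on the upper side (0.64 and 1.32).

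Ranked by FPKM within each library, a place that no scaling by a single factor moves, cat2 stood at 325 to 338 among the 44351 genes in transgenic libraries and at 537 to 545 in control libraries. The rank of cat1 was 1949 to 2069 in transgenic libraries, against 826 to 846 in control libraries. The rank of cat3 was 1038 to 1063 in transgenic libraries, against 680 to 704 in control libraries. By this measure cat2 stood higher and both cat1 and cat3 stood lower in transgenic leaves. Ranks also move with the spread of all other genes, so the lower place of cat3 does not settle its direction.

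Genes with a like difference between the groups were numerous. Likeness was measured as the root-mean-square distance between log2(FPKM + 1) values centred on each gene's mean over the 6 libraries, among 14012 other genes that averaged at least 5 FPKM. Within a distance of 0.1 there were 2421 genes around cat3, 1033 around cat1 and 474 around cat2. The gene nearest to cat2 was Zm00001d053295, at a distance of 0.017, with 228.9 ± 5.6 FPKM in transgenic and 144.8 ± 1.6 FPKM in control libraries (SD, n = 3 each). Nearest to cat1 was Zm00001d017890, at 0.014, with 14.7 ± 0.7 FPKM in transgenic and 39.0 ± 0.2 FPKM in control libraries. Nearest to cat3 was Zm00001d040470, at 0.010, with 38.5 ± 0.3 FPKM in transgenic and 61.6 ± 0.5 FPKM in control libraries. The files give no symbol for these genes. Of the 36 miRNA genes tested, compared here without the minimum of 5 FPKM, none lay within 0.1 of a catalase. The nearest were zma-mir398b to cat2 at 0.26, zma-mir168b to cat1 at 0.23 and zma-mir156h to cat3 at 0.15. Spread between libraries adds to the distance. It was wide in zma-mir168b (18.7 ± 4.1 FPKM in control) and zma-mir156h (7.0 ± 1.3 FPKM in transgenic libraries), so 0.1 was hard to reach.

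Of the miRNA genes listed by name, the precursor genes of miR398 and miR528 were chosen for a link to peroxide metabolism. Other miRNA families were not searched for such a link. Known targets of miR398 and miR528 include transcripts of Cu/Zn superoxide dismutases, which produce hydrogen peroxide, and of copper-containing oxidases. Of the 4 listed genes of miR398 and miR528, 3 were higher in transgenic leaves past the threshold and 1 did not pass. Among all tested genes 16.3% were called higher as deposited and 36.3% after median-of-ratios scaling. The share among the other miRNA genes was not computed, and whether these families stand out was not tested. The gene zma-mir398b had 95.8, 80.3 and 93.4 FPKM in transgenic libraries, against 41.4, 37.7 and 43.6 FPKM in control libraries (log2 difference 1.12 ± 0.07 SE, limma adjusted p = 1.3e-06), and the difference was 1.79 after median-of-ratios scaling. The gene zma-mir528a had 39.5, 27.8 and 33.5 FPKM in transgenic libraries, against 8.44, 10.8 and 7.72 FPKM in control libraries (limma adjusted p = 3.7e-06). For zma-mir528b the values were 3.83, 9.60 and 13.4 FPKM in transgenic libraries, against 1.96, 0 and 0 FPKM in control libraries (limma adjusted p = 0.0011). The uncalled gene, zma-mir398a, had 6.71, 2.45 and 6.12 FPKM in transgenic libraries, against 4.99, 1.25 and 1.26 FPKM in control libraries (limma adjusted p = 0.085).

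The catalase values are transcript levels of whole leaf and say nothing of enzyme activity. In bulk tissue, fewer cells of a type and less RNA per cell cannot be told apart. The sources used here do not say how fragments shared between the catalase genes were counted, so a part of each level could belong to another member. No other gene had the same 6 values as any of the 3, but sharing of a part of the fragments would not show in this way. The sources give no time of day of sampling either, and whether it was the same in both groups was not tested.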

How the data were processed

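RNA-seq of leaf was analysed in 3 transgenic and 3 control libraries. Each library has its own table of FPKM values, computed by the authors, per the file headers. DESeq2 (no version or role) and mm10, a mouse build, appear in the submitters' processing notes, although the identifiers are of maize; the sources used here name no aligner, counter or maize build. FPKM holds no read numbers, so depth is unknown and no counting interval is given. Genes above 0 numbered 28298 to 28311 in transgenic and 29229 to 29376 in control libraries.

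Genes averaging 0.5 FPKM or more over the 6 libraries were fitted on log2(FPKM + 1) by limma 3.58.1 (R 4.3.3), group as the only term, intensity trend, two-sided, Benjamini-Hochberg adjustment over all genes tested. The pseudocount slightly understates fold changes. Shares, ratios and the sum were compared with exact permutation tests (scipy 1.17.1, Python 3.11.15). A simulation of the transgenic against control comparison held 22944 genes, of which 22744 were left without a difference. Recovery by limma was 20.9% for the 67 genes set to 1.2-fold, 55.2% for the 67 set to 1.5-fold and 92.4% for the 66 set to 2-fold. There were 5 false calls. Few genes differ in this simulation, whereas 84% of the genes tested were called as deposited. It therefore gives no rate of missed or false calls for the deposited data. The members and lists were chosen with earlier results of these data known. Named genes are the 3 catalases, the nearest gene and nearest miRNA gene to each, and the miR398 and miR528 genes. Planned lists of peroxide, photorespiration and cell type genes were not run for want of names. The fit was planned without pairing, since the labels name no batch. Same-numbered libraries deviated together at correlations of 0.002, -0.05 and 0.002. Alternatives were another pseudocount, other filters, scalings and variance models, the replicate block and leaving out each library.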

Additional observations from a re-analysis of the deposited data

How the results depend on the processing

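The 2 scalings on genes of 50 to 500 FPKM and on the total of all but the 100 most abundant genes were chosen after seeing the data. The differences of cat1 and cat2 kept direction and call under all 17 alternatives, and that of cat3 under 16. Filters, variance models and the block leave the log2 differences unchanged, so they could alter only the call. With median-of-ratios scaling the cat3 difference turned to 0.011 (limma adjusted p = 0.69). This scaling divides by 0.786 to 0.793 in transgenic and by 1.26 to 1.27 in control libraries, which raises all genes in transgenic relative to control libraries. Which scaling is right was not tested. The summed catalase log2 difference, -0.11, was -0.38 with the same total FPKM and -0.026 with quantile normalisation, and turned to 0.57 with median-of-ratios scaling, 0.17 when that used genes of 50 to 500 FPKM and 0.18 with the total of all but the 100 most abundant genes. The median log2 difference of all tested genes, -0.56, was -0.69 with a pseudocount of 0.1, -0.26 with no filter, -0.61 for genes averaging 2 FPKM or more, -0.015 with median-of-ratios scaling, -0.78 with equal totals, -0.054 with quantile normalisation, -0.33 with ratios of genes of 50 to 500 FPKM and -0.32 with the total of all but the 100 most abundant genes. With the replicate block 19187 genes were called, against 19278 without it, and the log2 differences of cat1, cat2 and cat3 were -1.34, 0.64 and -0.67 (limma adjusted p = 3.4e-07, 1.6e-06 and 2.6e-06). Leaving out single libraries gave -1.37 to -1.32 for cat1, 0.63 to 0.65 for cat2, -0.68 to -0.66 for cat3, and 26.6 to 27.3 percentage points for the share of cat2. Filters, variance models and the block do not enter the sum. The depth behind each value is unknown.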
